A study of Mus musculus with 14 samples.

Results

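The comparison set H3K27ac-associated DNA from XEN cells against that from mouse ESCs, bin by bin. A bin was a 200-bp window of the genome (mm9), and its members were the bins with at least 30 CpG counts in the ESC library and at least 30 in the 2 XEN libraries summed. This gave 63543 bins, 1.15% of the 5526281 bins with a count in any of the 3 libraries. A further 93025 bins reached 30 counts in ESCs alone and 90485 in XEN cells alone. The rule used coverage and not methylation, and a bin under 30 counts in either state was left out, however strong its signal was in the other.

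H3K27ac marks the nucleosomes of active enhancers and promoters, and H3K4me1 marks enhancers, active or not. Methylated CpGs (5mC) are generally scarce where H3K27ac is high, and active promoters in CpG islands are usually free of 5mC. XEN cells, or extraembryonic endoderm cells, are related to the primitive endoderm that lines the blastocyst cavity and forms the yolk sac, whereas ESCs represent the pluripotent inner cell mass.

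Both states came from R1, a single mouse ESC line without a transgene in the labels. ESCs had been kept on gelatin in serum and LIF with the MEK and GSK3 inhibitors (2i) and were collected after 2 days without 2i. XEN cells were the product of 9 days of direct differentiation on gelatin in RPMI medium with serum, with retinoic acid at 0.1 µM and Activin A at 10 ng/mL. No sort of XEN cells is named in the sources, so cells that had not differentiated could be present. In ChIP-BS-seq, MNase-treated chromatin was precipitated with a histone antibody, and the recovered DNA was bisulfite converted, so that each sequenced CpG counted both as occupancy and as methylated or unmethylated. There was 1 ESC library and 2 XEN libraries, and the study describes the XEN pair as repeats. Whether these were separate cultures is not given in the sources used here, so p-values measure only the spread between libraries. Because ESC and XEN libraries were separate experiments, cell state and experiment cannot be told apart. In bulk chromatin, a bin acetylated in fewer cells and one with less acetylation per cell cannot be told apart either.

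The mark of the XEN libraries was checked first, because their labels and file names contradict each other. The pair used here has H3K27Ac in its file names, while the sample labels, including the antibody named, say H3K4me1. The other XEN pair has the names the other way round. In 23469 bins with at least 30 counts in each state and pair, the XEN ratio of the pair used here over the other pair rose with the ESC ratio of H3K27ac over H3K4me1, with a Spearman coefficient of 0.41 across bins. It was 0.37 for the replicates numbered 1 and 0.40 for those numbered 2. When the bins were split into 4 equal groups by ESC ratio, the median log2 XEN ratio was 0.76 in the group with the highest ESC ratio and -0.49 in the group with the lowest. CpG counts of the pair used here correlated across the same bins at 0.28 and 0.29 with ESC H3K27ac and at 0.00 and -0.01 with ESC H3K4me1. For the other pair the values were -0.07 and -0.07 with ESC H3K27ac and 0.39 and 0.43 with ESC H3K4me1. These coefficients share the CpG content and mappability of each bin. The measurements went with the file names, and the pair is called XEN replicate 1 and XEN replicate 2 from here on. With the other XEN pair in its place, 38303 of 69239 bins had higher 5mC in XEN cells and 121 had lower 5mC.

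The ESC library held 32588942 CpG counts, and the XEN libraries held 12147115 and 15698181. XEN libraries list only bins with at least 4 counts, whereas the ESC library lists bins from 1 count. Over all listed bins 5mC was 33.0% in ESCs and 48.5% ± 0.940 in XEN cells (SD, n = 2), with 47.9% and 49.2% in the replicates. On the mitochondrial genome, which is expected to be unmethylated, 19 of 535 counts were methylated in ESCs, against 0 of 716 and 1 of 985 in XEN cells. The largest count in a bin was 873 in ESCs but 24377 and 29764 in XEN cells. Bins above the ESC maximum took 3.19% and 2.89% of XEN counts, and the treatment of duplicate reads is not given in the sources used here. No annotation of mm9 was used, so bins are named by position and marker genes of XEN cells and ESCs could not be examined.

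H3K27ac of XEN cells was centred on the ESC H3K27ac peaks, and 5mC was higher in XEN cells at every distance from them. The ESC list holds 100469 peaks with a median length of 1661 bp. At the peak centre, pooled 5mC was 18.4% in ESCs, 33.1% in XEN replicate 1 and 33.7% in XEN replicate 2. The XEN libraries thus lay 14.7 and 15.3 points above ESCs and 0.572 points from each other. At 2 kb downstream of the centre in genome orientation, 5mC was 34.8% in ESCs and 56.7% and 57.5% in XEN cells. Occupancy at the centre was 50984 CPM (counts scaled to 1000000 listed counts of the library) in ESCs and 48075 and 46198 in XEN cells, and at 5 kb it was 17155 in ESCs and 18731 and 18303 in XEN cells. Since the peaks were called in ESCs, a higher centre in ESCs is partly set by that choice.

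**Figure D1:**
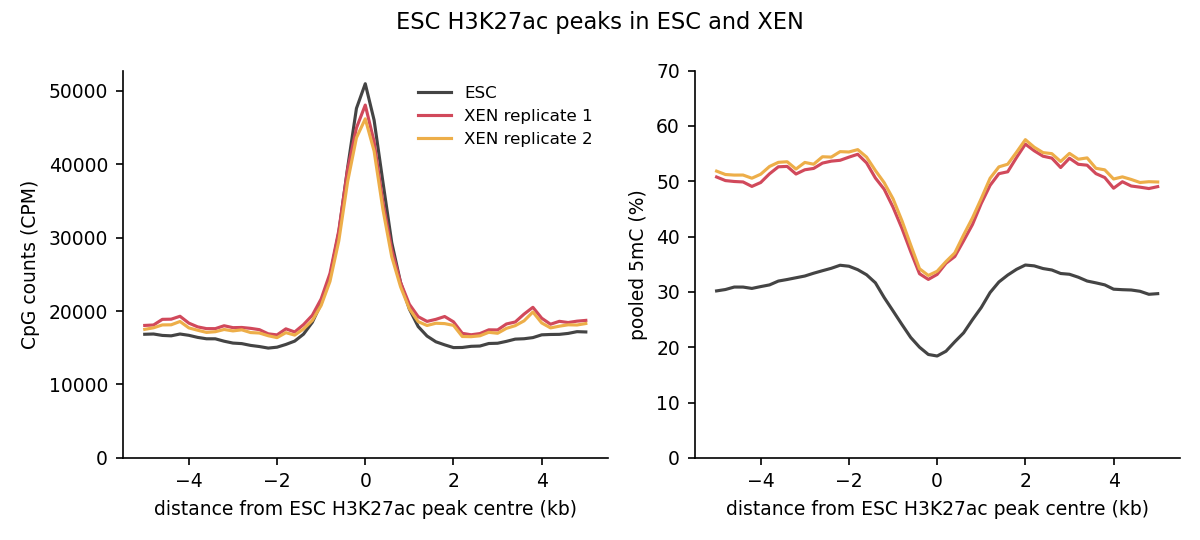
CpG counts in CPM (left) and pooled 5mC in percent (right) against distance in kb from the centres of 100469 ESC H3K27ac peaks, in steps of 200 bp, with 1 line per library. All 3 libraries peak in counts and dip in 5mC at the centre, and both XEN lines lie above the ESC line in 5mC at every distance.

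Most of the bins covered in both states were nearly free of 5mC in both, and a minority had much more of it in XEN cells. Coverage alone chose these bins. No XEN peaks or XEN input library were used, so acetylation of a given bin in XEN cells was not established. The median 5mC of the 63543 bins was 0.855% in ESCs, with quartiles of 0% and 3.57%. In summed XEN it was 1.19%, but the upper quartile was 24.4%. The upper quartile was 24.1% in XEN replicate 1 and 24.4% in XEN replicate 2, so the replicates had the same long tail. Mean 5mC was 5.91% in ESCs, 17.7% in XEN replicate 1 and 17.9% in XEN replicate 2. The median change per bin was only 0.370 points (quartiles -0.300 and 15.9), while 53.3% of bins were higher and 27.6% were lower in summed XEN by any amount. Bins over 80% 5mC were 0.203% of bins in ESCs and 6.86% in summed XEN.

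**Figure D2:**
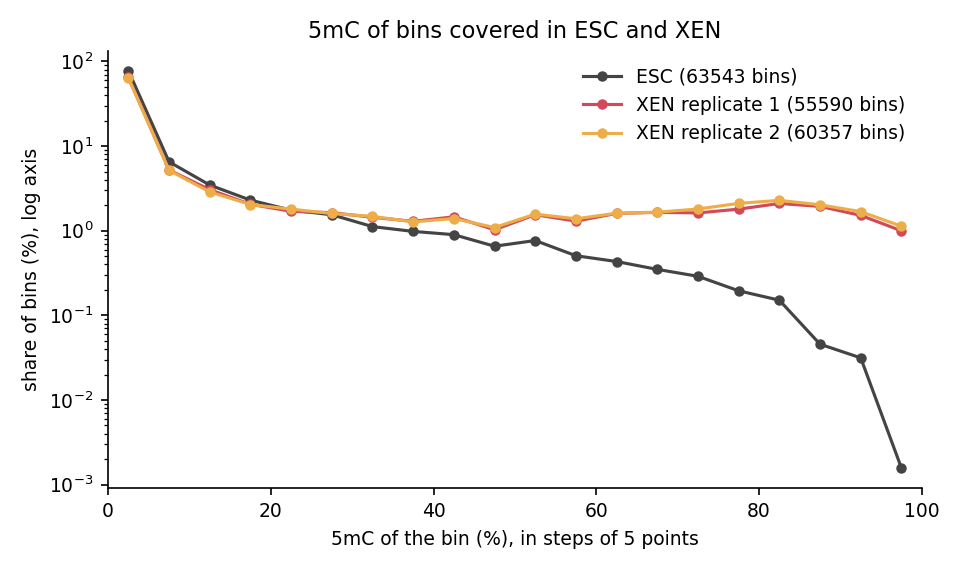
Share of bins in percent (log axis) by 5mC of the bin in steps of 5 points, for ESCs and each XEN replicate, over bins with at least 15 counts in the library shown. Below 5% lie 78.0% of bins in ESCs and 65.0% and 64.0% in the XEN replicates, and the XEN lines stay near 1 to 2% of bins per step from 20% up, where the ESC line falls away.

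By 5mC state, more bins moved up than down. Unmethylated regions (UMRs) had under 20% 5mC, and low-methylated regions (LMRs) had 20 to 80%. ESCs had 57366 UMR bins, 6048 LMR bins and 129 bins over 80%. A UMR bin could only keep its state or move up. Of the ESC UMR bins, 46305 (80.7%; exact 95% interval 80.4 to 81.0) remained UMRs in XEN cells, 9415 (16.4%; 16.1 to 16.7) were LMRs and 1646 (2.87%; 2.73 to 3.01) were over 80%. Intervals cover counting error only. In bins with at least 15 counts in the replicate, the UMR share was 82.2% in XEN replicate 1 and 81.1% in XEN replicate 2. Of the ESC LMR bins, 3089 (51.1%) were LMRs in XEN cells, 2630 (43.5%) were over 80% and 329 (5.44%) were UMRs. A stricter shift, from under 20% in ESCs to over 30% in XEN cells, was made by 9048 of 57366 bins (15.8%; 15.5 to 16.1), and the opposite one, from over 30% to under 20%, by 126 of 4034 bins (3.12%). The order of these shares depended on coverage: with a minimum of 60 counts they were 5.04% and 8.50%. With a single XEN library kept the order held but the shares were closer. They were 8.69% and 5.97% without XEN replicate 1, and 7.43% and 7.24% without XEN replicate 2.

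**Figure D3:**
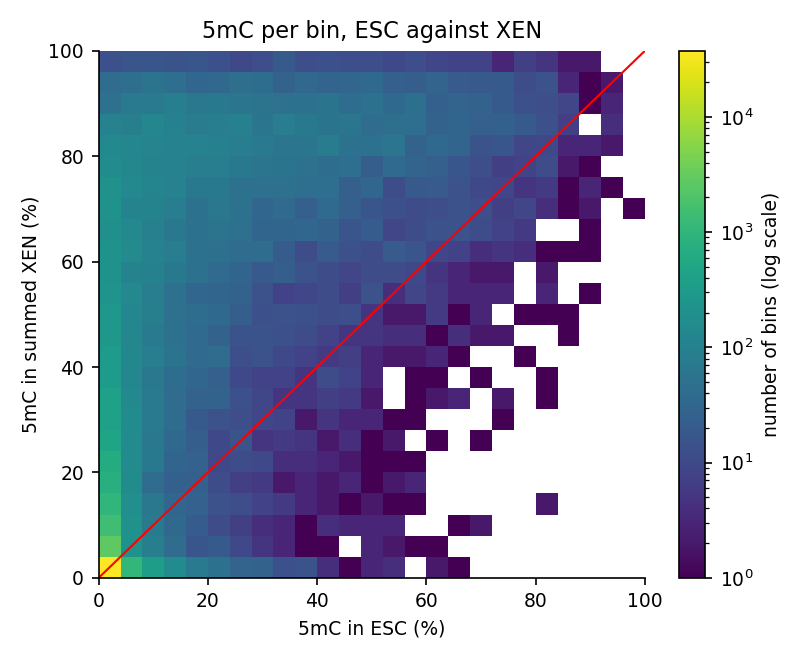
Number of bins (color, log scale) by 5mC in ESCs (x axis, percent) and in summed XEN (y axis, percent), with the line of equal 5mC in red. Most of the 63543 bins sit in the lower left corner, and bins far from the line lie almost all above it.

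The test of single bins also called more gains than losses, but most bins had no room to fall. By edgeR's quasi-likelihood test (adjusted p under 0.05 and more than 20 points), 5mC rose in 11846 of 63543 bins (18.6%) and fell in 178 (0.280%). A bin under 20% in ESCs cannot fall by more than 20 points, and 90.3% of bins were under 20%. Of the 2094 bins at 20 to 30% in ESCs, 5mC rose in 1279 and fell in 82. At 30 to 50% it rose in 1120 of 2323 bins and fell in 60. Above 50% it rose in 200 of 1760 and fell in 36. In bins that rose, the median was 6.90% in ESCs, 67.3% in XEN replicate 1 and 68.4% in XEN replicate 2. Of these bins 3480 (29.4%) passed 80% in summed XEN. In bins that fell, the median was 31.4% in ESCs and 0% in each XEN replicate. The spread between replicates was smaller than these changes: in 28449 bins with at least 30 counts in all 3 libraries, the replicates differed by more than 20 points in 0.991%, whereas XEN replicate 1 and ESCs did in 9.62% and XEN replicate 2 and ESCs in 9.79%. The counts depended on the fit. With edgeR's newer quasi-likelihood estimate 489 bins were called higher and 1 lower, and with Fisher's exact test of summed counts 13854 were called higher and 237 lower. Keeping 1 XEN library, with at least 30 counts in it, 5052 bins lay over 20 points higher without XEN replicate 1 and 3511 without XEN replicate 2.

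Coverage bears on these counts. Both states had to give 30 counts. A bin with more CpGs yields more counts at the same enrichment, and the number of CpGs per bin was not measured here. Bins whose smaller count was 30 to 34 had a median of 3.33% in ESCs and 29.5% in XEN cells, and bins left out with a smaller count of 25 to 29 had 8.00% and 51.9%. With a minimum of 60 counts the test called 1775 of 28992 bins higher and 48 lower, and with a minimum of 20 it called 24519 of 107285 higher and 292 lower.

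The largest gains are given among bins with at least 100 ESC counts, at least 50 in each XEN library and more than 20 points in each of them, so that agreement of the replicates was part of the choice. At chr1:94815801-94816000, 16 of 150 counts were methylated in ESCs (10.7%; exact 95% interval 6.22 to 16.7), 47 of 51 in XEN replicate 1 (92.2%; 81.1 to 97.8) and 62 of 65 in XEN replicate 2 (95.4%; 87.1 to 99.0). Choosing the largest differences made well-separated ESC and XEN intervals likely. The adjusted p was 2e-10 by edgeR, and the log2 occupancy ratio was -0.09. At chr1:191673801-191674000, methylated counts were 9 of 115 in ESCs (7.83%), 72 of 80 in XEN replicate 1 (90.0%) and 108 of 122 in XEN replicate 2 (88.5%; adjusted p 4.36e-11 by edgeR). At chr15:77646201-77646400 they were 10 of 115 in ESCs (8.70%), 66 of 78 in XEN replicate 1 (84.6%) and 96 of 107 in XEN replicate 2 (89.7%; adjusted p 5.31e-10 by edgeR). With edgeR's newer estimate the first bin was barely under the threshold (adjusted p 0.0498) and the second and the third lost their call (adjusted p 0.0536 and 0.0538). All 3 bins lay in ESC peaks of H3K27ac and of H3K4me1.

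Under the same limits, the largest losses were of 23.1 to 25.96 points, below the median loss of 30.01 points over all 178 bins that fell. At chr6:136467601-136467800, 70 of 208 counts were methylated in ESCs (33.7%; 27.3 to 40.5), 3 of 62 in XEN replicate 1 (4.84%; 1.01 to 13.5) and 11 of 120 in XEN replicate 2 (9.17%; 4.67 to 15.8), with an adjusted p of 0.00464 by edgeR. At chr9:100544201-100544400, 40 of 155 ESC counts were methylated (25.8%), and 0 of 81 and 0 of 80 in the XEN replicates (adjusted p 5.49e-05 by edgeR). At chr2:29475201-29475400, it was 36 of 156 in ESCs (23.1%), and 0 of 68 and 0 of 82 in XEN cells (adjusted p 0.000201 by edgeR). All 3 losses lost their call with edgeR's newer estimate (adjusted p 0.0676, 0.0962 and 0.105). Of the 12887 bins with that coverage, 6 were called lower and 221 higher, a far smaller share higher than the 18.6% of all 63543 bins. Of these, 6 and 183 also differed from ESCs by more than 20 points in each XEN library.

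Bins called higher in 5mC formed many short runs. A run of called bins ends where the next bin lacks a call or 30 counts in either state, so coverage limits its length. The 11846 bins formed 9514 runs of adjacent bins, of which 1681 had 2 or more bins and 448 had 3 or more. The longest had 8 bins. One of them, at chr12:111735801-111737400, held 542 ESC counts at 3.14% 5mC (exact 95% interval 1.84 to 4.97), 237 counts at 71.7% in XEN replicate 1 (65.5 to 77.4) and 328 counts at 70.1% in XEN replicate 2 (64.8 to 75.0). The log2 occupancy ratios of its bins ran from -0.10 to 1.05, and the stretch held 16.6 CPM in ESCs and 19.5 and 20.9 CPM in XEN cells. The other, at chr7:52381201-52382800, had 5mC of 1.36% in ESCs, 41.7% in XEN replicate 1 and 50.8% in XEN replicate 2. Its occupancy was 24.9 CPM in ESCs and 13.4 and 12.5 CPM in XEN cells. A run of 7 bins at chr5:65203001-65204400 had 5mC of 0.713% in ESCs, 33.3% in XEN replicate 1 (27.2 to 39.9) and 49.3% in XEN replicate 2 (43.1 to 55.4), where the replicates did not overlap each other but both lay above ESCs. Losses came mostly as single bins: the 178 formed 165 runs, 13 of them of 2 bins. The pair with the most XEN counts, at chr12:106237401-106237800, fell from 49.2% of 63 counts in ESCs to 4.85% of 103 and 8.92% of 157 in XEN cells, with log2 occupancy ratios of 1.61 and 2.79. At chr15:68194401-68194800, 5mC was 29.5% of 308 counts in ESCs and 0% of 80 and of 173 counts in XEN cells. At chr17:66702201-66702600, it was 49.0% of 96 counts in ESCs, 11.7% of 103 in XEN replicate 1 and 12.1% of 124 in XEN replicate 2.

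Nearly all bins that gained 5mC lay in ESC H3K4me1 peaks, which the choice of bins did not use. Of the 63543 bins, 45853 overlapped an ESC H3K4me1 peak by at least 1 bp. Among these 5mC rose in 11783 (25.7%, against 18.6% of all bins) and fell in 88. Among the 17690 bins outside such peaks it rose in 63 (0.356%) and fell in 90 (0.509%). Median 5mC in peaks was 1.30% in ESCs, 4.71% in XEN replicate 1 and 4.76% in XEN replicate 2. Outside peaks it was 0.428% in ESCs and 0% in both replicates. Coverage differed as well, with medians of 72 ESC and 58 XEN counts in peaks and 159 and 100 outside, and its part in the result was not tested.

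The difference between the 2 classes was present at each ESC 5mC level. In H3K4me1 peaks, 5mC rose in 8.51% of bins with under 1% in ESCs, 25.8% of bins with 1 to 5%, 56.4% with 5 to 10%, 63.9% with 10 to 20%, 63.1% with 20 to 30%, 49.3% with 30 to 50% and 12.8% above. Outside peaks the shares ran from 0.208% to 6.56%. For example, of the bins at 10 to 20% in ESCs, median XEN 5mC was 62.9% over 3436 bins in H3K4me1 peaks and 0% over 228 bins outside. Above 50% in ESCs the medians were close, at 82.4% over 1514 bins in peaks and 77.4% over 246 bins outside. A bin near full methylation in ESCs has less room to rise by 20 points, and bins over 30% in ESCs were rare.

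**Figure D4:**
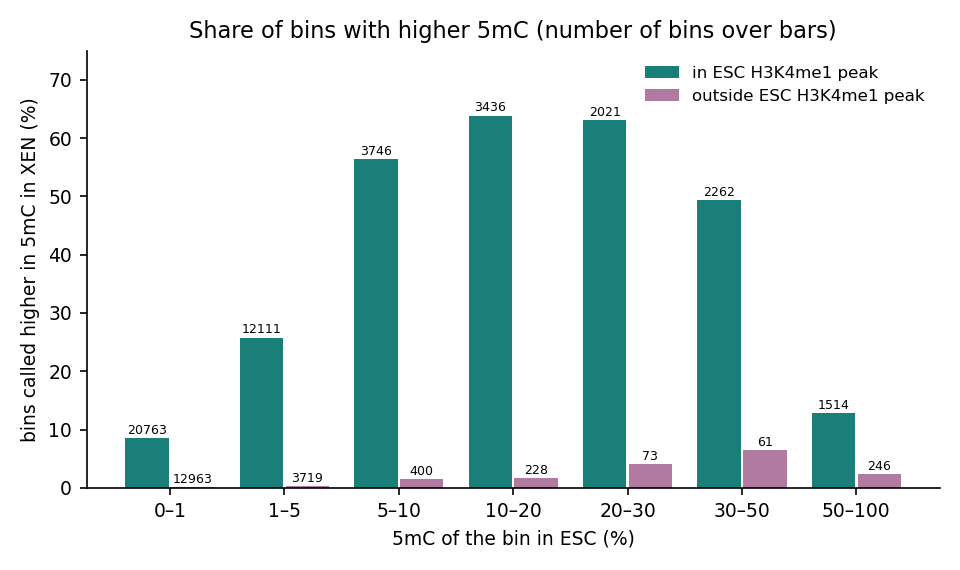
Share of bins called higher in 5mC in XEN cells (percent) by 5mC of the bin in ESCs (percent), in and outside ESC H3K4me1 peaks, with the number of bins over each bar. In peaks the bars climb from 8.51% to 63.9% at 10 to 20% and then drop, and outside peaks none passes 6.56%.

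Acetylation in retinoic acid-differentiated cells was another readout that the rule did not use. These cells had received 1 µM retinoic acid for 4 days, and 62487 of the bins overlapped one of their H3K27ac peaks. In those bins 5mC rose in 18.1%, close to the 18.6% of all bins. The 1056 bins outside these peaks were a small class in which 5mC rose in 559 (52.9%). Their median 5mC was 18.9% in ESCs and 75.0% in each XEN replicate, and their median counts were 45 in ESCs and 37 in XEN cells, near the minimum.

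The other pair of libraries gave a separate measure of the same bins. Of the bins that gained 5mC, 9956 had at least 15 counts in the ESC H3K4me1 library and in each XEN library with H3K4me1 in its file name. There the median was 8.60% in ESCs and 67.2% and 67.3% in the XEN replicates. Both of those XEN replicates lay more than 20 points above ESCs in 94.7% of these bins, compared with 51.1% of all 24391 bins measured in that way and 21.2% of the 14363 bins without a call. Of 72 measured bins that lost 5mC, 42 (58.3%) were more than 20 points lower in both, compared with 103 (0.422%) of all 24391. Whether all 4 XEN libraries came from the same cultures is not given in the sources used here.

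H3K27ac occupancy differed in both directions among the bins. The median log2 ratio of XEN over ESC counts was 0.02 (quartiles -0.61 and 0.61), after TMM scaling, which sets this median close to 0. Per library the ratios had an SD of 1.15 for XEN replicate 1 and 1.04 for XEN replicate 2 against ESCs, and 0.84 for XEN replicate 2 against XEN replicate 1. More than 2-fold differences were found in 32.7% and 30.4% of bins against ESCs, and in 15.0% between the replicates. By edgeR (adjusted p under 0.05 and more than 2-fold), occupancy was higher in 2880 bins (4.53%) and lower in 989 (1.56%). Higher calls were 74.4% of all calls with TMM, 63.0% when scaled by listed totals and 85.6% with DESeq2, which left 1725 and 419 lower bins respectively. With edgeR's newer estimate 4123 bins were called higher and 2654 lower. With bins of 30 counts in either state, 247053 in all, 41 were called higher and 0 lower by edgeR, and 46873 and 55055 had an unadjusted p under 0.05 in these directions.

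Bins called higher in occupancy were well covered in both states, which itself helps a bin to be called. Their median was 150.5 counts in ESCs and 499 in summed XEN, against 90 and 66 over all bins, and median 5mC stayed low at 0.476% in ESCs and 0.276% in XEN cells. By size of the ratio alone, the 1788 bins over 4-fold higher had a median of 81 ESC counts and the 7267 bins up by 2- to 4-fold had 54, both below the median of all bins. Bins called lower had medians of 262 and 45 counts. H3K4me1 peaks of ESCs covered 53.4% of the bins called higher, 46.9% of those called lower and 72.2% of all bins.

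**Figure D5:**
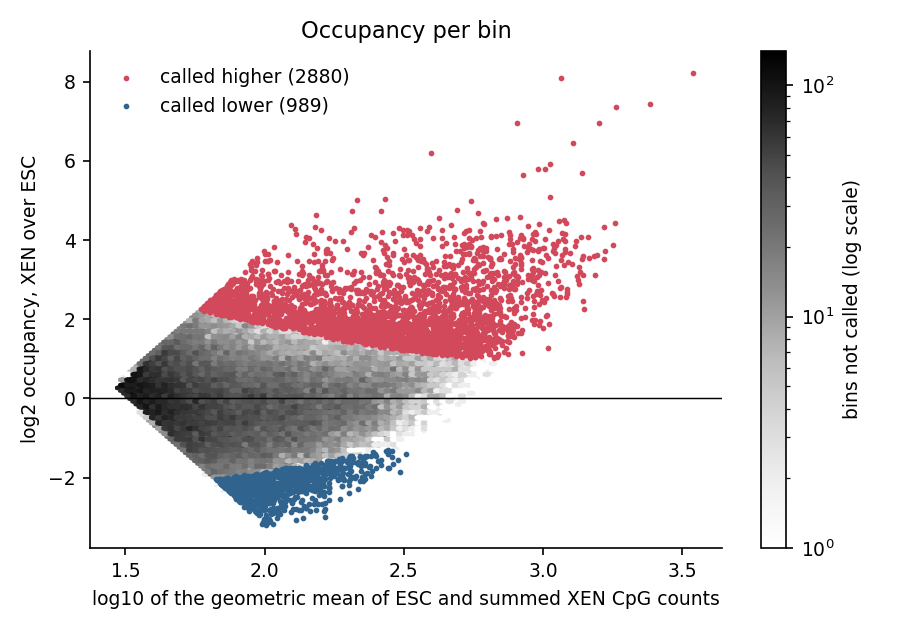
Log2 occupancy of XEN over ESC (y axis) against the log10 geometric mean of ESC and summed XEN counts (x axis), 1 point per called bin and gray shading for bins not called. The 2880 bins called higher reach a log2 ratio of 8.21 and the 989 called lower reach -3.20, and the wedge on the left is set by the minimum of 30 counts.

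The most extreme occupancy values clustered in a single place. All 3 of the largest increases lay within chr2:98505201-98507400, where a bin of 222 ESC counts held 24377 and 29764 in the XEN replicates (6.81 CPM against 2007 and 1896 CPM), a log2 ratio of 8.21. The rise there was not particular to these libraries. In the 3 bins the log2 ratio was 8.28, 5.79 and 7.51 with the other XEN pair in place of this one, and 8.22, 8.49 and 7.43 with the ESC H3K4me1 library in place of ESC H3K27ac. The longest run of higher bins, 6 bins at chr2:98506401-98507600, was in the same place, with 5mC of 66.4% in ESCs, 69.8% in XEN replicate 1 and 69.6% in XEN replicate 2. Without the 274 bins above the largest ESC count, 2606 bins were called higher and 989 lower. A second run of 6 bins, at chr6:86476201-86477400, held 76.3 CPM in ESCs, 359 in XEN replicate 1 and 317 in XEN replicate 2, with 5mC of 0.241%, 0.321% and 0.141%. A run of 5 bins at chr11:3093001-3094000 held 63.2, 415 and 337 CPM, with 5mC of 21.3%, 23.1% and 25.8%. In each of these runs both XEN replicates exceeded ESCs, and 5mC moved by less than 5 points.

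Among bins with less occupancy, the largest decrease was at chr17:74715401-74715600, with 340 counts in ESCs and 15 in each XEN replicate (10.4 CPM against 1.23 and 0.956 CPM), a log2 ratio of -3.20 (adjusted p 0.00244 by edgeR). At chr6:49168201-49168400, 356 ESC counts compared with 18 and 14, a log2 ratio of -3.17. At chr5:122952401-122952600, 318 ESC counts compared with 4 and 26, and the replicates differed widely there. All 3 bins were close to the minimum of 30 XEN counts, and with bins of 30 counts in either state all 3 lost their call (adjusted p 0.0578, 0.0578 and 0.0626 by edgeR). The longest run, 5 bins at chr17:33954201-33955200, held 56.4 CPM in ESCs, 11.1 in XEN replicate 1 and 13.9 in XEN replicate 2. In that run 5mC was 0.489% in ESCs (exact 95% interval 0.224 to 0.927), 16.3% in XEN replicate 1 (10.5 to 23.6) and 15.1% in XEN replicate 2 (10.7 to 20.6). Runs of 4 bins at chr6:148894001-148894800 and chr11:62271201-62272000 fell from 54.0 to 10.6 and 16.9 CPM and from 52.7 to 15.8 and 9.68, with 5mC at or below 1.56% in all libraries.

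Few bins were called both for 5mC and for occupancy, which were computed against the same ESC library. Of the 11846 bins that gained 5mC, 45 (0.380%) had higher and 128 (1.08%) lower occupancy, against 4.53% and 1.56% of all bins, and their median log2 ratio was 0.03 (quartiles -0.54 and 0.50). The share that gained 5mC was 14.9% of the 892 bins with over 4-fold lower occupancy and 16.0% of the 8054 bins down by 2- to 4-fold. It was 19.4% of the 22306 bins down by less than 2-fold and 21.4% of the 23236 bins up by less than 2-fold. Among the 7267 bins up by 2- to 4-fold it was 14.6%, and among the 1788 bins over 4-fold higher 3.08%. Coverage differed as well, with median XEN counts of 409 in that last class and 45 in bins that gained 5mC. Its part was not tested. In the 128 bins with both a gain and lower occupancy, median counts were 223 in ESCs and 37.5 in XEN cells, and median 5mC was 1.23% in ESCs, 53.9% in XEN replicate 1 and 55.6% in XEN replicate 2. Of the 178 bins that lost 5mC, 14 (7.87%) had higher and 3 (1.69%) lower occupancy, and the median log2 ratio was 0.50.

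Chromosome X had a smaller share of bins with gained 5mC than any autosome, and a lower median occupancy ratio. Of its 1102 bins 5mC rose in 74 (6.72%), whereas the autosomes ranged from 15.3% on chromosome 16 to 23.2% on chromosome 15. ESC H3K4me1 peaks covered 41.8% of its bins and 68.4% to 75.2% of the bins of each autosome, and the part of this in the lower share was not tested. The median log2 occupancy ratio was -0.18 on chromosome X and -0.06 to 0.09 on autosomes. Calls in occupancy were fewer on chromosome X in both directions, with 3.27% of its bins higher and 0.817% lower, against 3.47% to 5.24% and 1.16% to 1.92% on autosomes. Chromosome X took 1.84% of all CpG counts in ESCs and 1.26% and 1.23% in the XEN replicates.

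The bins covered in 1 state alone differed sharply in 5mC. In the 93025 bins covered in ESCs alone, median ESC 5mC was 5.41% and 76.0% were UMRs. In the 90485 covered in XEN cells alone, median XEN 5mC was 68.3%, and 14.4% were UMRs. Pooled over these bins, 5mC was 56.3% in XEN cells and 41.8% in the few ESC counts there, a median of 9 per bin. Pooled over the bins covered in ESCs alone, it was 10.4% in ESCs and 45.8% in the XEN counts, also a median of 9 per bin. Of the XEN bins 92.9% lay in H3K27ac peaks of retinoic acid-differentiated cells and 50.6% in ESC H3K27ac peaks, and of the ESC bins 57.7% and 95.9% did. No test was made between these classes, since coverage chose them.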

How the data were processed

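Libraries were ChIP-BS-seq of R1 cells: 1 of ESC H3K27ac, 2 of XEN cells whose files are named H3K27Ac but labelled H3K4me1, and, for checks, 1 ESC H3K4me1 and the other 2 XEN libraries. According to the methods, alignment used Bismark and Bowtie (mm9, per the processing notes), and the deposited tables give, for every 200-bp bin, unscaled counts of CpGs read as methylated and as unmethylated. The authors took peaks from HOMER, switching off its local and clonal filters; the deposited score of each peak was not used. Columns were identified from the mitochondrial counts. Whether the ESC file pools repeats was not given in the sources used here.

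From these counts 5mC was methylated over all CpG counts. Tests were edgeR 4.0.16 quasi-likelihood fits (legacy estimate), with each library's methylated and unmethylated counts as a pair for 5mC (12095 bins lacking either kind of count were kept among the tests and could not be called) and total counts with TMM for occupancy, Benjamini-Hochberg adjusted over 63543 bins. The single ESC library was assumed to vary like the XEN libraries. In the 5mC fit the prior degrees of freedom were infinite. The p-value of a bin thus took nothing from its own spread between libraries. With the newer estimate the prior degrees of freedom were 1.886. Both fits were tested on simulated data. The legacy estimate was chosen, after the files were seen, because the newer one had low recovery of 5mC changes in that check (both recovered occupancy changes). Because its data were simulated, that check cannot decide which estimate suits these libraries. The legacy estimate called 11846 bins higher and 178 lower in 5mC, and the newer one called 489 higher and 1 lower. CpGs of 1 read are not independent. An exact permutation of 1 against 2 libraries cannot go below p = 0.333, so none was used. Depth was 12147115 to 32588942 counts. Named bins on chromosomes 1 to 19 and X were the 3 largest called changes in each direction (for 5mC, with at least 100 ESC and 50 counts per XEN library and more than 20 points in each), and the 3 longest runs. Members, lists and rules were chosen with earlier results of these data known. Alternatives included DESeq2 1.42.0.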

Additional observations from a re-analysis of the deposited data

How the results depend on the processing

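No paired analysis was possible because a single ESC library stood against 2 XEN libraries. Alternatives chosen after seeing the data were the newer edgeR estimate, calls required in each XEN library, and leaving out bins above the ESC maximum. Bins with higher 5mC outnumbered those with lower 5mC in every alternative run. Of the 63543 bins, however, 90.3% were under 20% in ESCs and could not fall by more than 20 points. The counts of 11846 and 178 became 24519 and 292 (minimum of 20 counts), 1775 and 48 (minimum of 60), 489 and 1 (newer edgeR estimate), 38303 and 121 (other XEN pair) and 25246 and 1175 (ESC H3K4me1 library). Lower calls were 89 past 30 points and 422 by adjusted p alone. Leaving out a XEN replicate gives a count past 20 points or 2-fold with no test, because no residual degree of freedom remains: 3511 to 5052 higher and 153 to 191 lower in 5mC, and 8857 to 9474 higher and 2028 to 3003 lower in occupancy, over 32266 and 38986 bins. Requiring 20 points in each XEN library, with 15 counts in each, left 8016 and 134.

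Occupancy calls, 2880 higher and 989 lower, became 41 and 0 (30 counts in either state), 7256 and 7668 (other XEN pair), and 5087 and 2608 (ESC H3K4me1 library), and lower calls became 1725 (listed totals), 419 (DESeq2) and 2654 (newer estimate, with 4123 higher). The pooled 5mC difference of 15.6 points was 6.95 in the 63543 bins and 22.1 in bins with 4 counts in each library. The median change of 0.370 points was 4.35 (minimum of 20), 0 (minimum of 60), 0 to 0 without a XEN replicate, 0.369 (ESC peaks) and 27.7 (other XEN pair). The UMR shift of 15.8% was 11.7% with UMRs under 10%, 5.04% with 60 counts and 7.43% to 8.69% without a XEN replicate, and the reverse shift of 3.12% was 1.81%, 8.50% and 5.97% to 7.24%. Inside ESC peaks the median log2 occupancy of 0.011 became -0.040 with listed totals and -0.011 to 0.0064 without a XEN replicate; outside it was 0.55 (0.48 to 0.72 without a replicate). The cause of these shifts was not tested, except that other minimums and single libraries test other bins. The 12 named bins kept their direction wherever they could be tested. With the newer estimate 2 of the 3 named gains (adjusted p 0.0536 and 0.0538 by edgeR) and all 3 named losses (0.0676 to 0.105) lost their call, and with 30 counts in either state so did all 3 named bins with lower occupancy (0.0578 to 0.0626). The named loss on chromosome 6 also lost its call with the other XEN pair (adjusted p 0.253 by edgeR) and with the ESC H3K4me1 library (0.362).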

Other observations

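The longest stretches covered in XEN cells and nearly empty in ESCs were 10 bins at chr9:3013201-3015200, with 12 counts in ESCs, 685 in XEN replicate 1 and 920 in XEN replicate 2 at 61.5% and 64.9% 5mC, 7 bins at chr9:3032601-3034000, with 9, 733 and 811 counts at 62.6% and 69.7% 5mC, and 7 bins at chr1:155828001-155829400, with 8, 248 and 237 counts at 46.4% and 56.1% 5mC. Within 10 kb of the first, bins reached 141 ESC counts and 638 counts in a single XEN library. Within 10 kb of the third, none passed 10 ESC counts or 57 counts in a single XEN library. The third overlapped an H3K27ac peak of retinoic acid-differentiated cells in all 7 bins.

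Stretches acetylated in ESCs and not listed in either XEN library were unmethylated in ESCs. They were 11 bins at chr7:152046801-152049000 with 967 ESC counts at 0.724% 5mC, 9 bins at chr8:15027601-15029400 with 1105 counts at 0.995%, and 9 bins at chrX:50097201-50099000 with 805 counts at 0.497%. A bin that is not listed can hold up to 3 counts in each XEN library, so 5mC in XEN cells was not measurable there.

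The 178 bins that lost 5mC fell into 2 classes by ESC H3K4me1 peak. The 88 in peaks had medians of 38 ESC and 80 XEN counts, a median log2 occupancy ratio of 1.21, and 5mC of 38.5% in ESCs and 3.10% and 3.13% in the XEN replicates. The 90 outside had medians of 102.5 ESC and 61.5 XEN counts, a log2 ratio of -0.39, and 5mC of 29.0% in ESCs and 0% in both replicates. These classes were compared after the calls were seen, with no test.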
